A study of Mus musculus with 9 samples.

Results

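Kupffer cell and macrophage genes were followed in livers of male mice with and without a constitutively active form of the transcription factor STAT5b. A list of 37 gene symbols, covering resident Kupffer cells, monocytes, myeloid cells in general and the receptors with which macrophages sense and take up material, was matched to the deposited table, and all 37 were found among its 27434 named genes. The members fall into 10 genes of resident Kupffer cells, 4 of monocytes, 13 of myeloid cells and leukocytes in general and 10 receptors and activation genes.

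All 9 libraries came from male CD1 mice, an outbred stock, and hold polyadenylated RNA from nuclei of frozen liver. The 5 STAT5ca libraries are from mice given AAV8-STAT5ca at 2e11 genome copies each by tail vein, 2 of them taken after 4 weeks and 3 after 6 weeks. The 4 control libraries are from mice given vehicle without virus, 2 at each time. In both groups the mice were 11 to 12 weeks of age for the earlier time and 13 to 14 weeks for the later. The virus is stated to be highly specific for hepatocytes, whereas most members are known as genes of macrophages and other myeloid cells. The virus and the STAT5ca it carries cannot be told apart against vehicle. The labels name no promoter for the transgene. The table gives 1 RPKM value per group, with both times pooled (reads per kilobase of collapsed exons, scaled by the library's reads), so values per library, and with them standard deviations and the overlap of the groups, cannot be shown. The spread between libraries enters only through the authors' adjusted p, headed as edgeR's, and called genes are those with an adjusted p below 0.05. The labels number 1 male for each library, and whether time entered the authors' test is not stated. Library totals read back from the low values were 9489045 to 13144589 reads in control and 11823873 to 14863490 in STAT5ca livers, so that 1 RPKM stands for 45.6 reads per kilobase over the control group and 69.8 over the STAT5ca group. Intervals for genes cannot be given without their exon lengths and library values.

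Kupffer cells are the resident macrophages of the liver, which sit in the sinusoids and clear bacteria, complement-coated particles, dying cells and old red cells from the blood. They renew locally, and monocytes from the blood can replace them when they are lost. The factor PU.1, encoded by Spi1, directs the myeloid programme, and signalling through the receptor Csf1r keeps macrophages alive. Many of their surface receptors pass their signal through small adaptors, encoded by Tyrobp and Fcer1g, that carry tyrosine activation motifs.

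Some Kupffer cell and macrophage genes were higher in the STAT5ca livers. Of the 37 members, 14 rose, 0 fell and 23 were not called. The share that rose was 37.8%, against 3.87% of all named genes called higher and 1.92% called lower per the authors' deposited table. By role, 2 of 10 resident Kupffer, 1 of 4 monocyte, 7 of 13 general and 4 of 10 receptor and activation genes rose. Other leukocyte lists had shares of 64.3% (most leukocytes), 44.4% (dendritic), 40.0% (B), 33.3% (neutrophil) and 16.7% (T and NK) called higher. Among named genes with a mean of the group values of at least 1 RPKM, a level that 34 members and all 14 called members reach, 6.09% were called higher and 3.95% lower per the authors' deposited table. Folds of the called members ran from 1.56 for Axl to 3.78 for Ccr2 per the authors' deposited table. The median log2 fold over all 37 members was 0.73, beside 0.016 over named genes with a mean of at least 1 RPKM. The fold lay above 1 for 35 members, where 51.6% of the named genes at that level lay above 1. The exceptions were Cd163 and Hmox1, neither of which was called. With p-values adjusted again over features with a mean of at least 0.1 RPKM, 17 members rose, as did 9.34% of the named genes so tested. Adjusted over named genes alone 16 rose (4.37% of named genes), at an adjusted p below 0.01 9 rose (2.73%), and at a fold of at least 2 as well as the threshold 11 rose (2.97%). In bulk tissue more cells of a type and more RNA per cell cannot be told apart.

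**Figure D1:**
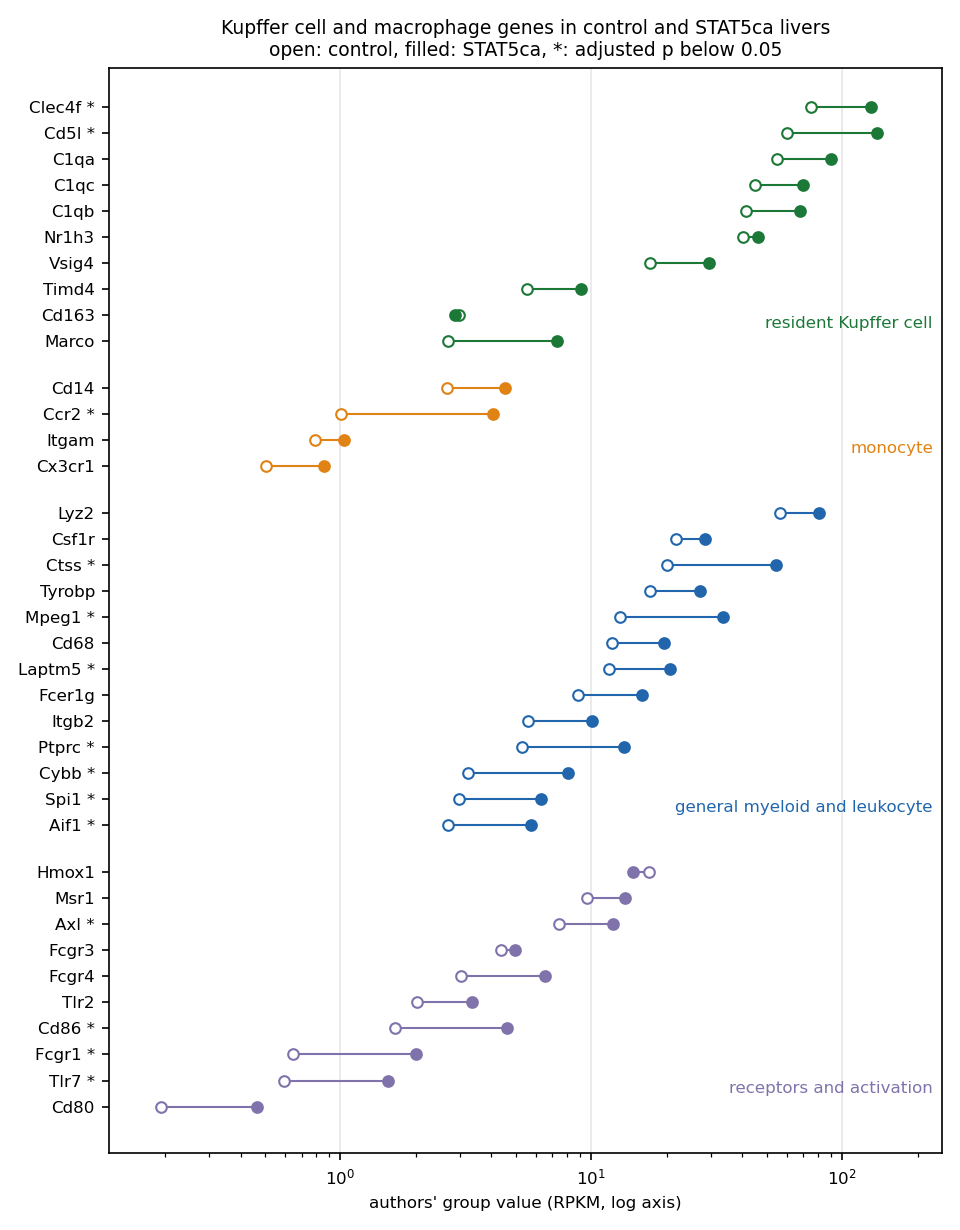
Group values of the 37 members (horizontal log axis, RPKM, the authors' value per group with no error available), in 4 groups by role, with open points for the 4 control libraries, filled points for the 5 STAT5ca libraries and an asterisk for an adjusted p below 0.05. The filled point lies to the right for 35 members, and Cd163 and Hmox1 are the exceptions.

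Resident Kupffer cell genes were among the most abundant members. Clec4f, a lectin that marks Kupffer cells in the mouse (mm9 chromosome 6, 83594536 to 83606110), had a level of 75.3 RPKM in control livers against 130 RPKM with STAT5ca. It was the highest member in control livers and rose 1.65-fold per the authors' deposited table (adjusted p = 0.0258). Cd5l, which encodes a secreted macrophage protein that binds lipids and pathogens (chromosome 3, 87161803 to 87174996), went from 60.1 to 138 RPKM and became the highest member in STAT5ca livers. Its 2.20-fold rise had an adjusted p of 0.00106 per the authors' deposited table. These were the 2 called genes of the 10 resident Kupffer genes, whose median log2 fold was 0.66 and whose summed level went from 345 to 591 RPKM.

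The C1q subunits, which together form the recognition part of the classical complement pathway and are made by macrophages in most tissues, had nearly equal values. C1qa stood at 55.1 and 90.6 RPKM (1.58-fold, adjusted p = 0.206 per the authors' deposited table). For C1qb the values were 41.3 and 67.9 RPKM (1.57-fold, adjusted p = 0.151), and for C1qc 44.9 and 69.7 RPKM (1.48-fold, adjusted p = 0.276), per the authors' deposited table. None of them passed the threshold. The 3 genes lie beside each other within 18.7 kb of chromosome 4, with no other named gene between them.

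The remaining resident genes did not pass either. Vsig4, a receptor for complement C3 fragments through which Kupffer cells catch bacteria, stood at 17.1 and 29.5 RPKM (1.66-fold, adjusted p = 0.240 per the authors' deposited table), a fold like that of Clec4f. Timd4, a receptor for phosphatidylserine on dying cells that long-lived resident macrophages carry, stood at 5.55 and 9.12 RPKM (1.57-fold, adjusted p = 0.438 per the authors' deposited table). Marco, a scavenger receptor for bacteria, had the largest fold of the resident genes, 2.61 from 2.67 to 7.30 RPKM, with an adjusted p of 0.359 per the authors' deposited table. Aif1, at 2.67 and 5.76 RPKM, was called at a smaller fold from the same control level. Cd163, the scavenger receptor for haemoglobin, stood at 2.96 and 2.85 RPKM (adjusted p = 1 per the authors' deposited table). Nr1h3, the liver X receptor alpha that Kupffer cells need and hepatocytes also express, stood at 40.2 and 46.2 RPKM (1.09-fold, adjusted p = 1 per the authors' deposited table).

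A further 10 genes of Kupffer cells and tissue macrophages gave 1 called higher and 0 lower, with a median log2 fold of 0.45. The gene that rose was Slc40a1, the iron exporter ferroportin, 1.58-fold from 43.5 to 72.0 RPKM (adjusted p = 0.0275 per the authors' deposited table). Spic, a transcription factor of iron-recycling macrophages, stood at 5.07 and 8.95 RPKM (adjusted p = 0.128 per the authors' deposited table). Levels of Clec1b, a Kupffer cell lectin, were 7.46 and 9.88 RPKM (adjusted p = 1 per the authors' deposited table). Id3, a regulator of Kupffer cell development, stood at 108 and 97.3 RPKM (adjusted p = 1 per the authors' deposited table). Of 7 partners and targets of the liver X receptors 0 were called, with a median log2 fold of 0.05. Among them the cholesterol exporter gene Abca1 stood at 26.8 and 27.7 RPKM (adjusted p = 1 per the authors' deposited table).

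Monocyte genes were faint. Ccr2, the chemokine receptor that brings classical monocytes out of the bone marrow (chromosome 9, 124016922 to 124023879), went from 1.01 to 4.05 RPKM. Its 3.78-fold rise was the largest of the members (adjusted p = 1.57e-05 per the authors' deposited table). Cx3cr1, the fractalkine receptor of patrolling monocytes, stood at 0.503 and 0.860 RPKM (1.63-fold, adjusted p = 0.437 per the authors' deposited table). Itgam, the alpha chain of complement receptor 3 on monocytes and neutrophils, stood at 0.793 and 1.03 RPKM (1.22-fold, adjusted p = 1 per the authors' deposited table). For Cd14, a co-receptor for bacterial lipopolysaccharide, the levels were 2.65 and 4.52 RPKM (1.61-fold, adjusted p = 0.352 per the authors' deposited table). The control value of Cx3cr1 stands for 22.9 reads per kilobase over 4 libraries and that of Ccr2 for 45.8. The median log2 fold of the 4 genes was 0.70, or 1.30 over the 2 with a mean of at least 1 RPKM.

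In a wider list of 12 monocyte and recruited macrophage genes, 6 rose and 0 fell, with a median log2 fold of 1.29. Ly6c2, which marks classical monocytes, rose 5.49-fold from 1.80 to 10.5 RPKM (adjusted p = 1.42e-07 per the authors' deposited table), although reads may be shared with its near-identical neighbour Ly6c1. Plac8, another monocyte gene, rose 2.75-fold from 2.49 to 7.29 RPKM (adjusted p = 1.62e-05 per the authors' deposited table). Gpnmb, a gene of lipid-laden macrophages, went from 0.0231 to 0.490 RPKM (adjusted p = 1.14e-05 per the authors' deposited table), a control level of 1.05 reads per kilobase over the group, so its fold is not given. Cd9, a tetraspanin of scar-associated macrophages and other cells, rose 2.27-fold from 8.71 to 20.7 RPKM (adjusted p = 4.50e-04 per the authors' deposited table). The monocyte genes Chil3 (0.356 and 0.989 RPKM, adjusted p = 0.268) and F13a1 (0.153 and 0.352 RPKM, adjusted p = 0.209) did not pass per the authors' deposited table. Whether the response of monocyte genes differed from that of resident Kupffer genes was not tested, since the table holds no library values.

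General myeloid and leukocyte genes rose or were not called. Of 13 members in this group 7 rose and 0 fell, with a median log2 fold of 0.77, and their summed level went from 181 to 324 RPKM. Mpeg1, which encodes the pore-forming protein perforin-2 of macrophages (chromosome 19, 12535260 to 12539775), rose 2.47-fold from 13.0 to 33.6 RPKM (adjusted p = 1.93e-05 per the authors' deposited table). Ctss, the lysosomal protease cathepsin S that trims the invariant chain for antigen presentation (chromosome 3, 95330708 to 95360327), went from 20.1 to 54.3 RPKM (2.58-fold, adjusted p = 3.30e-04 per the authors' deposited table). Ptprc, the phosphatase CD45 found on nearly all leukocytes, went from 5.30 to 13.5 RPKM (2.44-fold, adjusted p = 1.93e-04 per the authors' deposited table). All 3 lay in the upper 5% of named genes by fold, whose 95th percentile at a mean of at least 1 RPKM was 0.96 on the log2 scale.

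Among the regulators and effectors of the group, Spi1, the gene of PU.1, rose 2.00-fold from 2.97 to 6.28 RPKM (adjusted p = 0.0222 per the authors' deposited table). Cybb, the catalytic subunit of the phagocyte oxidase that makes superoxide, rose 2.39-fold from 3.23 to 8.06 RPKM (adjusted p = 0.00127 per the authors' deposited table). Aif1, the actin-binding macrophage marker IBA1, rose 2.05-fold with an adjusted p of 0.0222 per the authors' deposited table. Laptm5, a lysosomal protein of blood cells, rose 1.66-fold from 11.8 to 20.5 RPKM and lay close to the threshold (adjusted p = 0.0454 per the authors' deposited table). Of 5 partners of the oxidase 2 rose and 0 fell, with a median log2 fold of 0.78. Rac2, the oxidase's GTPase in blood cells, rose 2.11-fold (adjusted p = 0.00533 per the authors' deposited table).

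Just outside the threshold were Fcer1g and Itgb2. Fcer1g stood at 8.82 and 15.9 RPKM (1.70-fold, adjusted p = 0.0527) and Itgb2, the common beta chain of leukocyte integrins, at a control level of 5.605 RPKM against 10.03 RPKM (1.70-fold, adjusted p = 0.0615), per the authors' deposited table. Both passed when p was adjusted again over named genes alone (adjusted p = 0.0348 and 0.0405). Tyrobp, the other adaptor gene, stood at 17.1 and 27.1 RPKM (log2 fold 0.59, adjusted p = 0.217 per the authors' deposited table). Cd68, a lysosomal glycoprotein of macrophages, stood at 12.1 and 19.4 RPKM (1.52-fold, adjusted p = 0.223 per the authors' deposited table). Lyz2, lysozyme, was the most abundant of the group at 56.3 and 80.8 RPKM (1.37-fold, adjusted p = 0.890 per the authors' deposited table), and it may share reads with its close paralogue Lyz1. Csf1r, on which macrophages depend for survival, stood at 21.8 and 28.3 RPKM (1.25-fold, adjusted p = 0.777 per the authors' deposited table).

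Some genes of signalling around the adaptors and Fc receptors, and some genes shared by most leukocytes, were also higher. Of 15 genes in the signalling list 8 rose and 0 fell, with a median log2 fold of 0.83. The list holds receptors, such as Trem2, and inhibitory genes, such as Fcgr2b, beside kinases. Trem2, a lipid receptor that signals through Tyrobp and is also in the recruited macrophage list, went from 0.145 to 0.779 RPKM (4.68-fold, adjusted p = 0.00174 per the authors' deposited table). The kinase genes Btk (2.03-fold, adjusted p = 0.00271) and Syk (1.79-fold, adjusted p = 0.00812) and the phospholipase gene Plcg2 (1.90-fold, adjusted p = 0.00615) rose per the authors' deposited table. Fcgr2b, the inhibitory Fc receptor that liver endothelial cells express abundantly, stood at 95.4 and 77.5 RPKM (adjusted p = 0.658 per the authors' deposited table). Of 14 genes shared by most leukocytes 9 rose and 0 fell, with a median log2 fold of 1.04. The 9 include Rac2, also counted among the oxidase partners, and Inpp5d, also counted among the signalling genes. Leukocyte genes with the lowest adjusted p were Coro1a, an actin regulator (2.09-fold, adjusted p = 0.00184), Ikzf1, a lymphoid and myeloid transcription factor (2.14-fold, adjusted p = 0.00231), Lst1 (2.72-fold, adjusted p = 0.00232) and Cd52 (2.42-fold, adjusted p = 0.00341), per the authors' deposited table.

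Promoters of called members were searched for motifs, because 14 members were called in the same direction. Of the 11 called members with a promoter at hand, 5 held a match and are shown, and 6 (Axl, Cd5l, Clec4f, Laptm5, Mpeg1 and Ptprc) held none of the 3 motifs. RefSeq promoters of build GRCm38.p6, from 250 bases before to 50 after each start, were at hand for 27 of the 37 members (30 promoters), and were searched on both strands. The motifs were GAGGAAGT for PU.1, TTCNNNGAA for STAT5 and GAAANNGAA for the core of the interferon response element. The motifs were not fixed beforehand: a longer form of the interferon letters and a joint site of PU.1 and interferon factors had been searched first, and both were set aside, for their length, after their matches had been seen. Capitals mark the matches, and coordinates are of that build, not of mm9.
Ccr2, chr9:124101933-124102232, plus strand: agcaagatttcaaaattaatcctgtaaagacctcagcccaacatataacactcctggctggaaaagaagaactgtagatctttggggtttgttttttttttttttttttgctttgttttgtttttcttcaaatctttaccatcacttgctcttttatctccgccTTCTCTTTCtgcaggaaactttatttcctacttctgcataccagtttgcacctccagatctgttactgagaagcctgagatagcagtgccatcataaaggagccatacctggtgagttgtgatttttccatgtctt
Ctss, chr3:95526536-95526835, plus strand: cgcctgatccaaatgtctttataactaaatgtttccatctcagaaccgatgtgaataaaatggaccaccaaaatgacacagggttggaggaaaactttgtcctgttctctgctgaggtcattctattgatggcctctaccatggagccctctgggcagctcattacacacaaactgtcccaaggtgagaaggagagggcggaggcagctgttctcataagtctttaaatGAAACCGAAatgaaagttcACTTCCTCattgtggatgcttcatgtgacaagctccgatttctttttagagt
Cybb, chrX:9469275-9469574, minus strand: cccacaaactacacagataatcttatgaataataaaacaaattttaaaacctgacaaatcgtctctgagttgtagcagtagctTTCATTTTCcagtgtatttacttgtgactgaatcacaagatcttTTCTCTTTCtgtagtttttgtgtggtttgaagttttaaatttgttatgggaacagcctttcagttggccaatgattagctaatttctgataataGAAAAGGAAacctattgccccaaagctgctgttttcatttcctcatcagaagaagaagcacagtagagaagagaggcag
Aif1, chr17:35176003-35176302, minus strand: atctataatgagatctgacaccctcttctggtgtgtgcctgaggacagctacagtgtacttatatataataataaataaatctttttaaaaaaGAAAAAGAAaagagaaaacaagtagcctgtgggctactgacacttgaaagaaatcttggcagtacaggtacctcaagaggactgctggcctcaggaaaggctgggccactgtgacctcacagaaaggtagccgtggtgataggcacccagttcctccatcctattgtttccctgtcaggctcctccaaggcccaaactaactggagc
Fcgr1, chr3:96293920-96294219, minus strand: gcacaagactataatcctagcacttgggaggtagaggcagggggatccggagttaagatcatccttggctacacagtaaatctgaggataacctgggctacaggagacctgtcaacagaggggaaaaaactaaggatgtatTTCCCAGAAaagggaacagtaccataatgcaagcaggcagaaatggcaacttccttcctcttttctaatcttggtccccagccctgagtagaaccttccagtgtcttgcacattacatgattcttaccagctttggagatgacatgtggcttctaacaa
The Ctss promoter held the interferon element and the PU.1 letters next to its start. Cybb held 3 interferon elements, and Ccr2 and Aif1 held 1 each. Fcgr1 held the TTCCCAGAA match, the sole STAT5 match among the 30 promoters (3.33%, against 8.30% of all 32851 promoters). The interferon letters were in 6 of the 30 (20.0% against 8.56% of all) and the PU.1 letters in 3 (10% against 3.20%). Of the 6 genes with interferon letters 4 were called, and Fcgr4 and Timd4 were not. Of the 3 with PU.1 letters only Ctss was called, and C1qc and Fcgr4 were not. At counts this small the shares are a description, and a match is not a bound site.

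Receptors and activation genes were uneven. Of 10 genes 4 rose and 0 fell, with a median log2 fold of 0.84 (0.65 over those with a mean of at least 1 RPKM). Fcgr1, the high-affinity receptor for IgG, rose 2.87-fold from 0.649 to 2.00 RPKM (adjusted p = 1.94e-04 per the authors' deposited table). Fcgr4, a receptor for IgG subclasses on monocytes, stood at 3.03 and 6.55 RPKM (2.06-fold, adjusted p = 0.181 per the authors' deposited table). Fcgr3, the low-affinity activating receptor, stood at 4.37 and 4.94 RPKM (1.08-fold, adjusted p = 1 per the authors' deposited table). Fcgr3 shares much of its sequence with Fcgr2b, so its reads may be split. Fcgr3, Fcgr4 and Fcer1g lie within 215 kb of chromosome 1 together with 7 other named genes. Of these 7, Pcp4l1 was called lower, at 3.59 and 1.88 RPKM (1.99-fold lower, adjusted p = 0.00610 per the authors' deposited table).

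**Figure D2:**
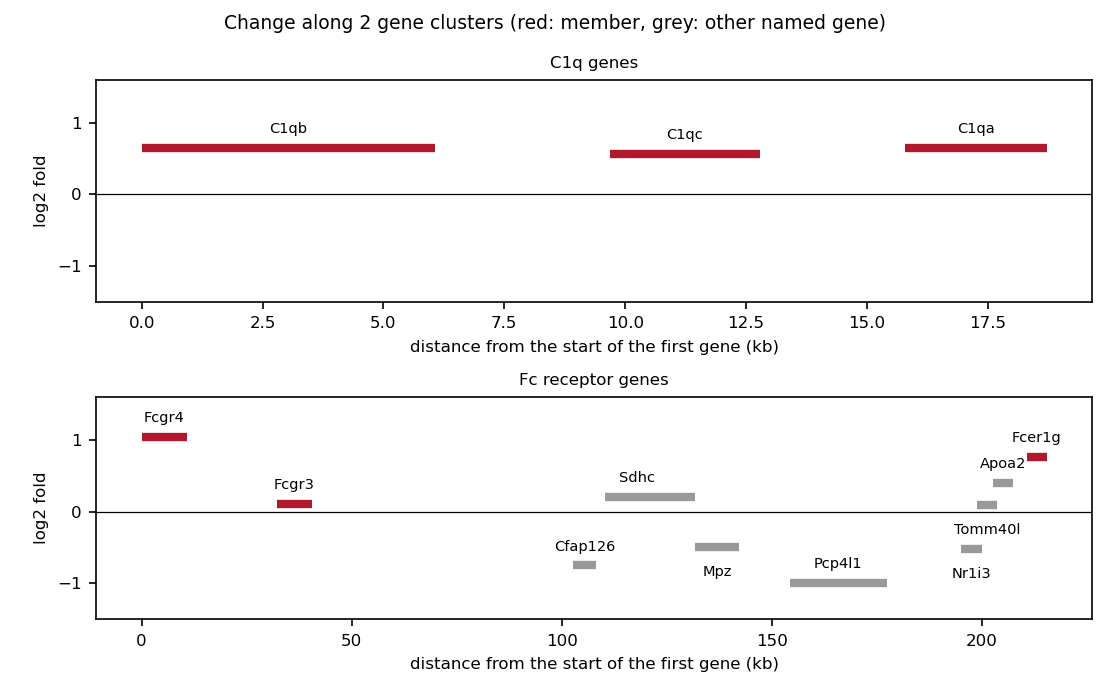
Log2 of the authors' fold (vertical axis) of each named gene against its distance in kb from the start of the first gene (horizontal axis) in the C1q cluster on chromosome 4 and the Fc receptor cluster on chromosome 1, with members in red and other named genes in grey and no error available. The 3 C1q genes lie at 0.57 to 0.66, while Fcgr4 lies at 1.04, Fcgr3 at 0.11 and Fcer1g at 0.77.

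Cd86, which gives T cells their co-stimulus through CD28, rose 2.63-fold from 1.65 to 4.61 RPKM (adjusted p = 1.08e-04 per the authors' deposited table). Its partner Cd80 was the faintest member, at 0.193 and 0.466 RPKM, or 8.80 reads per kilobase over the control group (2.22-fold, adjusted p = 0.144 per the authors' deposited table). Tlr7, the endosomal receptor for single-stranded RNA, rose 2.45-fold from 0.594 to 1.55 RPKM (adjusted p = 0.00496 per the authors' deposited table). Levels of Tlr2, the receptor for bacterial lipoproteins, were 2.02 and 3.35 RPKM (1.56-fold, adjusted p = 0.131 per the authors' deposited table). Axl, a receptor for the clearance of dying cells that cells other than macrophages also express, rose 1.56-fold from 7.45 to 12.2 RPKM (adjusted p = 0.0395 per the authors' deposited table).

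The scavenger receptor gene Msr1 stood at 9.63 and 13.6 RPKM (1.36-fold, adjusted p = 0.584 per the authors' deposited table). Hmox1, the enzyme that degrades heme in macrophages and, under stress, in hepatocytes, stood at 17.0 and 14.6 RPKM (adjusted p = 1 per the authors' deposited table). In the wider Toll-like receptor list 3 of 13 genes rose and 1 fell, with a median log2 fold of 0.52. Tlr1, a partner of Tlr2, rose 2.95-fold from 1.45 to 4.55 RPKM (adjusted p = 7.61e-05 per the authors' deposited table), as did the related Cd180 (2.40-fold, adjusted p = 0.0185) and its partner Ly86 (2.07-fold, adjusted p = 0.0257 per the authors' deposited table). Tlr5, the receptor for flagellin, was 1.92-fold lower, with 4.39 and 2.40 RPKM (adjusted p = 0.0114 per the authors' deposited table). Tlr4 stood at 0.649 and 0.980 RPKM (adjusted p = 0.696 per the authors' deposited table).

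**Figure D3:**
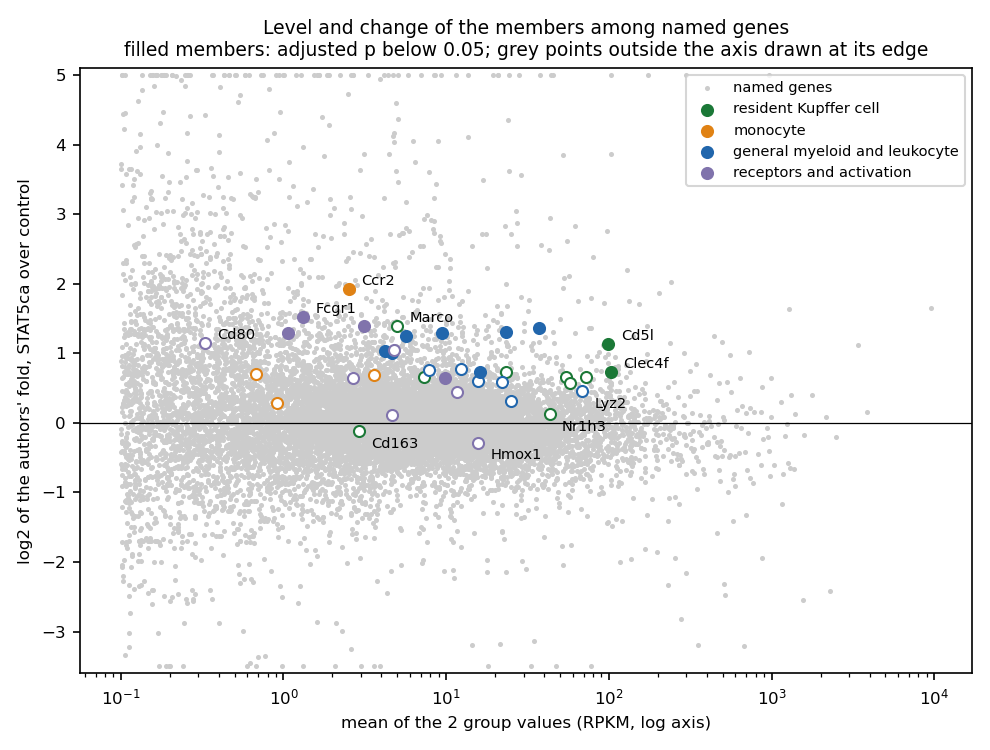
Log2 of the authors' fold (vertical axis) against the mean of the 2 group values in RPKM (horizontal log axis) for named genes with a mean of at least 0.1 RPKM in grey and the 37 members in colour by role, filled where the adjusted p is below 0.05, with no error available. Members lie above 0 at all levels except Cd163 and Hmox1, and Ccr2 is the highest at 1.92.

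Calls were not confined to faint members. Of 15 members with at least 10 RPKM in control livers 5 rose (median log2 fold 0.66), and of the 22 below that level 9 rose (median 0.89). A fold of at least 2 was reached by 14 members, of which Marco, Fcgr4 and Cd80 were not called.

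Some genes from lists of macrophage products and partners were also higher, and which liver cells held their RNA was not tested. Of 12 cytokines and products 3 rose and 0 fell, with a median log2 fold of 0.95 over mostly faint genes. These were Il18, a cytokine released by inflammasomes (2.04-fold, 5.53 to 11.9 RPKM, adjusted p = 4.47e-05), the interferon-induced chemokine Cxcl10 (3.39-fold, 2.67 to 9.60 RPKM, adjusted p = 9.85e-05) and the interleukin-1 receptor antagonist gene Il1rn (5.05-fold from 0.221 RPKM, adjusted p = 1.51e-04), per the authors' deposited table. Tnf (0.766 and 1.16 RPKM), Il1b (5.62 and 5.02 RPKM) and Il6 (0.0757 and 0.101 RPKM), the classical inflammatory cytokines, each had an adjusted p of 1 per the authors' deposited table. Of 12 growth factors, niche signals and chemokines for macrophages 0 rose and 1 fell, with a median log2 fold of -0.18. Bmp10, a ligand made by stellate cells that supports Kupffer cell identity in the mouse, was 2.36-fold lower, with 1.28 and 0.559 RPKM (adjusted p = 0.0109 per the authors' deposited table). Csf1, the ligand of Csf1r, stood at 9.27 and 8.60 RPKM and Ccl2, the ligand of Ccr2, at 2.94 and 3.68 RPKM (adjusted p = 1 for both per the authors' deposited table). Of 11 lysosomal hydrolases, which hepatocytes express too, 3 rose and 0 fell, with a median log2 fold of 0.44. Those with the lowest adjusted p were Ctsc (2.41-fold, adjusted p = 0.00104) and Ctsz (2.03-fold, adjusted p = 0.00378), per the authors' deposited table. Among complement partners, of which 8 were analysed here, 1 rose and 0 fell (median log2 fold -0.09), the central component C3 at 1.96-fold (365 to 738 RPKM, adjusted p = 0.00811 per the authors' deposited table).

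Few features of long noncoding RNA (lncRNA) near the members were called, as was the case among all lncRNA features. Of 81 lncRNA features within 10 kb of a member and not overlapping it, 1 rose and 2 fell, beside 1.47% of all lncRNA features called higher and 1.25% called lower per the authors' deposited table. The feature that rose lies 4017 bases from Clec4f and went from 0.0781 to 0.336 RPKM (nc_inter_c6_5295, 4.10-fold, with adjusted p = 0.0132 per the authors' deposited table). Both that fell lie near Itgam, which was not called, namely nc_inter_c7_45473 (0.988 to 0.270 RPKM, adjusted p = 0.0135) and nc_inter_c7_45474 (1.01 to 0.296 RPKM, adjusted p = 1.11e-04), per the authors' deposited table. Of 4 lncRNA features that overlap a member (Aif1, Cd163, Clec4f and Msr1) 0 were called, and all stood at 0.523 RPKM or less. Among 28 named genes within 10 kb of a member and not overlapping it, 2 rose and 0 fell. The 28 include the members C1qa, C1qb and C1qc, which are neighbours of each other. Of all named genes 3.87% were called higher and 1.92% lower, or 6.09% and 3.95% at a mean of at least 1 RPKM, per the authors' deposited table. The 2 neighbours that rose were Lst1, 9043 bases from Aif1, and Fcrl1, a B cell receptor gene 5313 bases from Cd5l (0.552 to 1.28 RPKM, 2.20-fold, adjusted p = 0.0326 per the authors' deposited table).

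Some markers of other leukocytes were also higher, and their part in the result was not tested. Of all named genes 3.87% were called higher and 1.92% lower per the authors' deposited table. The fold was negative for 2 T and NK cell, 1 dendritic cell and 3 neutrophil markers, none of them called. Of 10 B cell markers 4 rose and 0 fell (median log2 fold 1.02, summed level 19.2 to 39.4 RPKM), led by Pax5, the B cell master regulator (0.186 to 0.749 RPKM, 3.82-fold, adjusted p = 1.34e-05 per the authors' deposited table). Of 18 T and NK cell markers 3 rose and 0 fell (median 0.74, summed level 18.2 to 33.8 RPKM). They were Klrd1, the NK cell receptor subunit CD94 (2.93-fold, adjusted p = 8.04e-04), the chemokine gene Ccl5 (2.73-fold, adjusted p = 0.00135) and Lck, the kinase of the T cell receptor (2.24-fold, adjusted p = 0.00484), per the authors' deposited table. Cd3e, a defining T cell gene, stood at 2.14 and 1.59 RPKM (adjusted p = 1 per the authors' deposited table). Of 9 dendritic cell markers 4 rose and 0 fell (median 0.82, summed level 8.00 to 14.3 RPKM), led by Itgax (log2 fold 1.59, adjusted p = 8.95e-05) and Xcr1, which went from 0.0194 to 0.188 RPKM (adjusted p = 8.17e-04 per the authors' deposited table). Of 12 neutrophil markers 4 rose and 0 fell (median 0.54, summed level 10.9 to 14.8 RPKM). The called ones were the granule genes Ngp (0.0228 to 1.43 RPKM, adjusted p = 1.21e-07), Mpo (0.0307 to 0.432 RPKM, adjusted p = 5.91e-05), Camp (0.0320 to 0.690 RPKM, adjusted p = 0.00721) and Ltf (0.0306 to 0.299 RPKM, adjusted p = 0.00942), per the authors' deposited table. The mature neutrophil genes S100a8 (1.84 and 2.61 RPKM) and S100a9 (2.74 and 3.02 RPKM) had an adjusted p of 1 per the authors' deposited table. None of these markers was at 0 in either group, but Xcr1 and the 4 called neutrophil genes were close to it in control livers. They stood there at 0.0194 to 0.0320 RPKM, where 1 RPKM is 45.6 reads per kilobase over the group. The sizes of their rises are therefore imprecise. Members that some of these other leukocytes also express include Ptprc, Laptm5, Itgb2, Spi1, Ccr2 and Cd86, and this list is not complete.

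**Figure D4:**
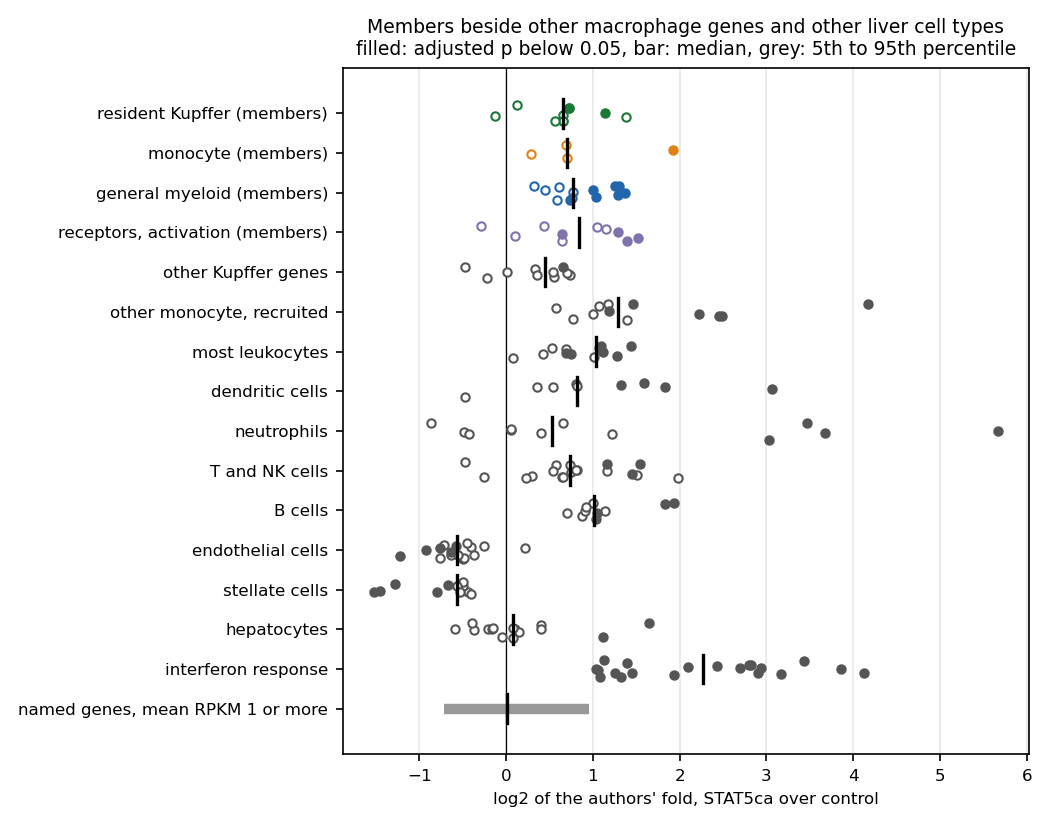
Log2 of the authors' fold (horizontal axis) of each gene in the 4 groups of members, in other macrophage and leukocyte lists and in lists of other liver cells (rows), filled where the adjusted p is below 0.05, with a bar at each list's median and no error available. The grey band runs from -0.71 to 0.96, the 5th to 95th percentile of named genes with a mean of at least 1 RPKM, and medians of the member groups (0.66 to 0.84) lie to the right of those of endothelial (-0.57) and stellate (-0.56) cells.

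Markers of the other cells of the sinusoid fell or were not called. Of 16 liver endothelial markers 0 rose and 5 fell (median log2 fold -0.57, summed level 595 to 407 RPKM), and of 11 stellate cell markers 0 rose and 5 fell (median -0.56, summed level 329 to 182 RPKM). Hepatocyte markers, which check the tissue label and stood at 83.7 RPKM or more in control livers, had a median log2 fold of 0.08 over 15 genes, of which 2 rose and 0 fell. Their summed level went from 17693 to 30699 RPKM, with Alb, the albumin gene, at 4563 and 14666 RPKM (3.13-fold, adjusted p = 1.51e-04) and Trf, the transferrin gene, at 2087 and 4663 RPKM (2.17-fold, adjusted p = 0.00715), per the authors' deposited table. All 20 interferon response genes rose, with a median log2 fold of 2.26, and their part in the members' rise was not tested. The difference between the members and any of these lists was not tested.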

How the data were processed

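Nuclear polyadenylated RNA of 9 livers was compared as 4 control and 5 STAT5ca libraries. Per the submitters' processing notes, STAR, featureCounts and edgeR were used with the mm9 build. Per the file headers, the authors deposited for each feature 1 RPKM value per group over collapsed exons, a signed fold change (a score, negative for control over STAT5ca) and an adjusted p-value from edgeR. Versions, adjustment method, strand use in counting and any term for time were not stated in the sources used here. Log2 folds were computed from the deposited fold.

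The authors' adjusted p, with a threshold of 0.05, was the test, since no library values allow another. Members and lists were chosen with earlier results of these data known, and lists are described by counts and medians beside all named genes. All 37 members are named, and of other lists up to 4 called genes by adjusted p with defining genes that did not pass. Some genes that this rule selects are not reported here. Library totals came from lncRNA features of 1 interval, whose low RPKM values are whole reads scaled by length and total, a step tested on simulated data. New adjustments took each p at its upper bound under a step-up adjustment over all features. Alternatives were thresholds, filters on low values, pseudocounts of 0.01, 0.1 and 1 and centring. Python 3.11.15, numpy and pandas were used.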

Additional observations from a re-analysis of the deposited data

How the results depend on the processing

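The 0 members that fell and the direction of every median held under all alternatives run. At an adjusted p below 0.01, 9 of the 14 members were still called, Clec4f, Aif1, Laptm5, Spi1 and Axl being lost, with 4 of 7 general and 1 of 2 resident Kupffer genes left, and at a minimum fold of 2 the resident genes kept 1 (Cd5l). Other counts of all members were 11 at a minimum fold of 2, 17 with p adjusted over features of at least 0.1 RPKM and 16 over named genes, the gains being Fcer1g, Itgb2 and, in the first, Tlr2. The monocyte median of 0.70 became 0.45 from RPKM ratios with a pseudocount of 1 and 1.30 over members of at least 1 RPKM, since the added 1 RPKM is as large as most of the 4 levels and 2 genes remain. The median over all members ranged from 0.70 to 0.79. No paired analysis was possible because the table carries 1 value per group and no replicate numbers, and for the same reason leaving out libraries was not run. Depth limits Cd80, Cx3cr1, Tlr7 and Fcgr1, at 8.80 to 29.6 reads per kilobase over the control group. Outside the members, the folds of Trem2, Pax5 and Il1rn also start from faint control levels, at 0.145 to 0.221 RPKM.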
